A study of Mus musculus with 16 samples.

Results

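The platelet-derived growth factor (PDGF) family was followed as 6 genes, the ligands Pdgfa, Pdgfb, Pdgfc and Pdgfd and the receptors Pdgfra and Pdgfrb, in single cells of mouse mammary tumours. The 6 genes are the members of the family as listed by name, with no threshold on their values, among the 19822 genes kept in the count tables of the deeper sequencing run, and all 6 had counts. The question was which cells carried RNA of the ligands, which carried RNA of the receptors, and whether this differed between 2 tumour models.

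PDGF ligands are secreted dimers that bind receptor tyrosine kinases on neighbouring cells and drive their division, survival and migration. PDGF-A and PDGF-C act mainly on PDGFRα, PDGF-B acts on both receptors, and PDGF-D acts mainly on PDGFRβ. PDGF-C and PDGF-D are secreted as latent proteins that need proteolysis before they bind. In most tissues the receptors mark mesenchymal cells, and endothelial PDGF-B acting on PDGFRβ recruits pericytes to vessels.

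End-stage tumours of untreated WB1P mice (WapCre;Brca1F/F;Trp53F/F) were compared with those of WB1P-Myc mice, which carry the same alleles and in addition a Myc construct. The Wap promoter directs Cre to mammary epithelium and not to the stroma. Viable single cells were sorted without a lineage marker and profiled by Drop-seq, a droplet method that counts unique molecular identifiers (UMIs) near the 3′ end of transcripts. PDGFRβ protein, which the study used elsewhere as its fibroblast marker, took no part in choosing these cells.

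Each model was 1 cell suspension run as 4 droplet fractions, which are technical repeats, so no test between models was possible and no p-value is given. The study names 2 mice per model, and the labels assign no fraction to a mouse. Any difference in handling between the suspensions cannot be told apart from the model. Levels are pooled UMIs per 1000000 UMIs of the cell class (CPM), with exact Poisson 95% intervals, and ratios have exact conditional binomial intervals. These cover counting error only.

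The filter of 450 to 4000 genes and under 20% mitochondrial UMIs kept 1307 WB1P cells with a median of 1724 UMIs and 3491 WB1P-Myc cells with a median of 2359 UMIs. WB1P fraction 1 stood apart, with 65 kept cells and a median of 887 UMIs against 394 to 426 cells in the other WB1P fractions. It held 2 fibroblast-like cells and no pericyte-like cell, and leaving it out kept all 13 ratios that were recomputed inside their counting intervals. A single kept barcode (1) occurred in more than 1 library. Myc, the gene added in WB1P-Myc, stood at 33.6 to 93.9 CPM among epithelial-like cells of the 4 WB1P fractions and at 195 to 215 CPM for the 4 WB1P-Myc fractions. In the construct a luciferase gene follows Myc, so 3′ tags of its transcript need not fall in Myc. Whether these UMIs came from the construct was not tested. UMIs of Brca1 (5.45 and 10.0 CPM) and Trp53 (7.92 and 14.4 CPM) in the same cells check nothing, because 3′ tags need not fall in the deleted exons.

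Cells were grouped by clustering without the 6 genes and named from marker lists that also leave them out. Of WB1P and WB1P-Myc cells, respectively, 659 and 876 were epithelial-like, 356 and 632 macrophage-like, 177 and 236 fibroblast-like, 41 and 39 pericyte-like, and 37 and 72 endothelial-like. The fibroblast-like cells held 196 iCAF-like cells (inflammatory cancer-associated fibroblasts, led by markers such as Pi16, Clec3b and Dpt), 190 myCAF-like cells (myofibroblastic, led by Tagln, Lrrc15 and Tnc) and 27 others. The iCAF-like cluster was also led by Cd34 and Cxcl12, which the study reports in its inflammatory fibroblasts. The study ties Pi16 and Dpt to normal fibroblasts positive for the surface protein CD26. It clusters these apart from inflammatory fibroblasts, finds CD26 in both, and concludes that the former are predisposed to become the latter. The name iCAF-like does not tell these populations apart. Another 733 cells, all WB1P-Myc, were Schwann-like. A cluster of 16 WB1P and 834 WB1P-Myc cells led by Col2a1 and Acan matched no list and is called the Col2a1/Acan cluster. Under some other processing choices no such unnamed class remained, as given at the end.

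The defining markers took part in naming the classes, so their levels describe the classes and do not check the names. The pericyte marker Rgs5 had 4342 CPM among pericyte-like cells, with 953 CPM among endothelial-like cells and 41.3 and 1.83 CPM among the myCAF-like and iCAF-like ones. The fibroblast proteoglycan gene Dcn had 6723 CPM among iCAF-like cells, 1096 CPM among myCAF-like cells and 63.3 CPM among pericyte-like cells. Pecam1, which encodes an endothelial adhesion molecule, had 874 CPM among endothelial-like cells and no UMI among pericyte-like cells. Pericyte-like cells nevertheless held all 12 fibroblast markers, with a sum of 13850 CPM that included Col1a1 at 3054 CPM. Epithelial-like cells came almost wholly from 1 cluster in WB1P, led by Csn3, Lcn2 and Krt7, and from another in WB1P-Myc, led by Gpx2, Bex1 and Igf2. In the WB1P cluster 10 epithelial markers led, Epcam among them, and 1 was in its top 10 genes. The WB1P-Myc cluster was named on weaker grounds, with 7 leading markers, Epcam not among them, and 0 in its top 10. Differences between models in that class are therefore also differences between these clusters.

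**Figure D1:**
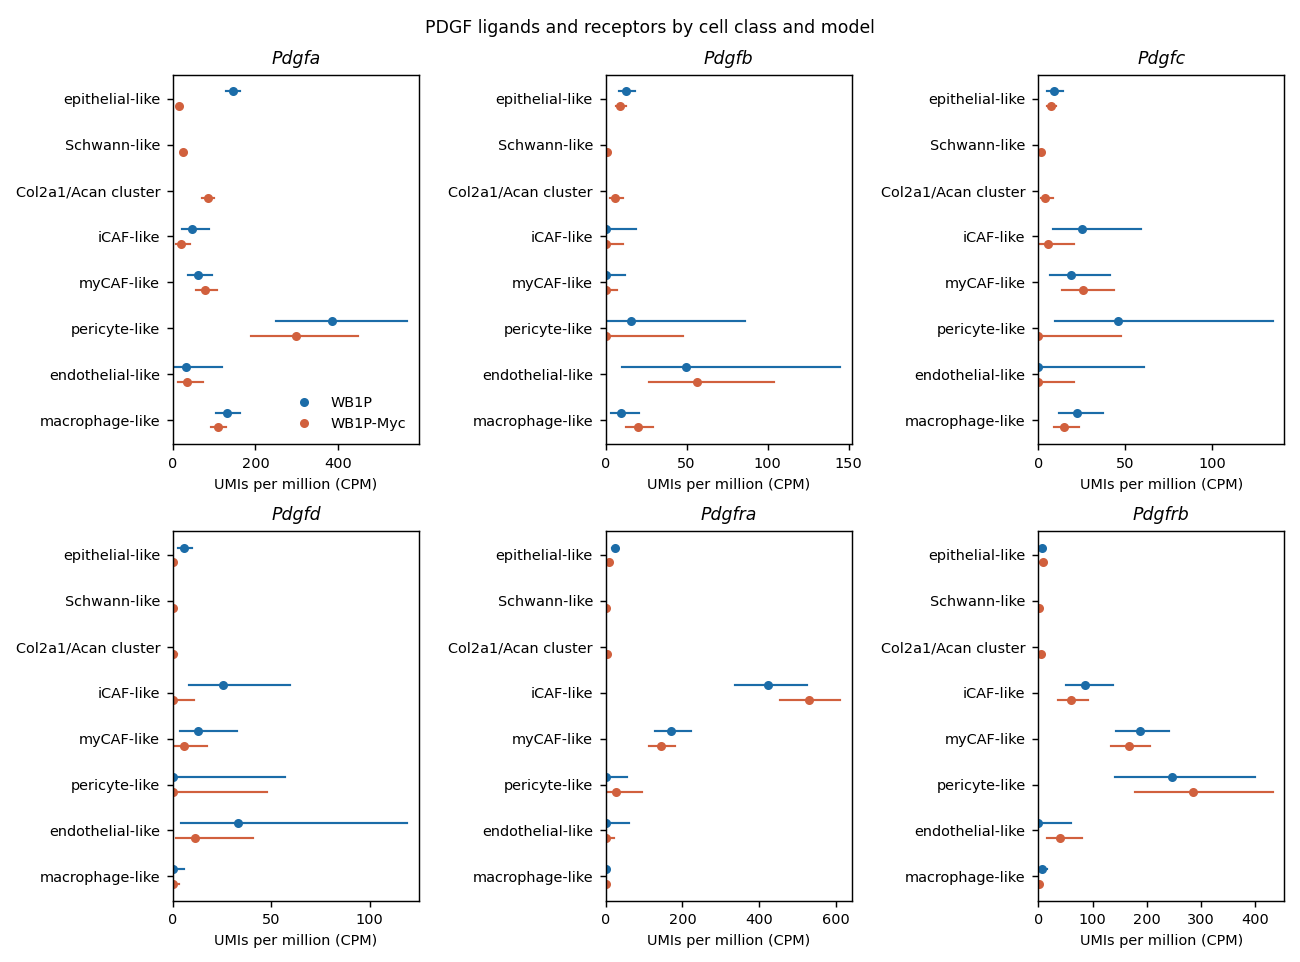
Level of each PDGF gene (CPM, horizontal axis, a separate scale for each gene) in the 8 classes with the most cells, drawn where a model had at least 20 of them, with WB1P in blue and WB1P-Myc in orange; points are pooled levels and bars are exact Poisson 95% intervals. Among the classes drawn Pdgfra was highest in iCAF-like cells at 423 and 528 CPM, whereas the levels of Pdgfrb and Pdgfa were highest in pericyte-like cells. The 27 other fibroblast-like cells are not drawn. They had 560 CPM of each receptor in WB1P, and 34.8 CPM of Pdgfra and 313 CPM of Pdgfrb in WB1P-Myc.

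Receptor RNA lay mainly in fibroblast-like and pericyte-like cells. Ligand RNA was spread over epithelial-, Schwann-, macrophage-, endothelial-, fibroblast- and pericyte-like cells and the Col2a1/Acan cluster. Counting a gene as higher or lower at a pooled ratio of at least 2-fold, 4 of the 6 genes (Pdgfc, Pdgfd, Pdgfra and Pdgfrb) were higher in fibroblast-like than in all other cells, against 14.1% of the 14390 genes compared. Pdgfb was lower, against 26.9% of genes. With pericyte-like cells added, the same 4 genes were higher (14.2% of genes) and Pdgfb was lower (26.3% of genes), and the median log2 ratio was 2.10 for the 6 genes and −0.35 for all genes. Epithelial- and Schwann-like cells together had 0 of the 6 genes higher (14.3% of genes) and 5, all but Pdgfb, lower (19.9% of genes). Pdgfa counts among these 5 only just, at −1.003 over both models, and was higher in these cells in WB1P (0.45, 0.15 to 0.74). It fell short of 2-fold lower under every processing choice tried other than the coarser second clustering, with ratios from −0.88 to −0.14, and without any 1 of the WB1P-Myc fractions, from −0.87 to −0.80.

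Pdgfra, the receptor for PDGF-A and PDGF-C and for PDGF-B, was highest in iCAF-like cells among the larger classes of both models. Its level in iCAF-like cells was 423 CPM (337 to 524, 83 UMIs) in WB1P and 528 CPM (455 to 610, 185 UMIs) in WB1P-Myc. In myCAF-like cells it was 171 CPM (129 to 224, 54 UMIs) and 143 CPM (112 to 180, 73 UMIs). The iCAF-like level was 3.18-fold the myCAF-like level over both models, a log2 ratio of 1.67 (1.36 to 1.99), and each model showed it, WB1P with 1.303 (0.79 to 1.82) and WB1P-Myc with 1.88 (1.48 to 2.29). The 5 other fibroblast-like cells of WB1P held 4 Pdgfra UMIs, a level of 560 CPM (152 to 1433) above the iCAF-like one with an overlapping interval. The 22 of WB1P-Myc held 1 (34.8 CPM).

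The fractions showed the same order. In iCAF-like cells Pdgfra was at 403, 361 and 492 CPM in WB1P fractions 2 to 4, fraction 1 having no such cell, and at 536, 589, 464 and 580 CPM in WB1P-Myc fractions 1 to 4. In myCAF-like cells it was at 199, 166 and 137 CPM in WB1P fractions 2 to 4 and at 198, 124, 112 and 149 CPM in WB1P-Myc, and the single myCAF-like cell of WB1P fraction 1 held none. The lowest iCAF-like fraction thus lay above the highest myCAF-like fraction in each model. Between models the fractions overlapped in both fibroblast classes, and over all fibroblast-like cells the log2 ratio of WB1P-Myc to WB1P was 0.10 (−0.20 to 0.41). Its sign turned in the MiSeq tables (−1.48) and when cells were named singly from their marker UMIs (−0.76). Fibroblast-like cells held 74.2% of all Pdgfra UMIs in WB1P, where they held 15.5% of UMIs of every kind, and 82.0% in WB1P-Myc, where they held 7.43%.

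At least 1 Pdgfra UMI was found in 58.2% of iCAF-like cells (114 of 196) and in 36.8% of myCAF-like cells, against 0.20% of macrophage-like cells (2 of 988), which serve as the background. Median depths were 2421, 3577 and 1505 UMIs, and after thinning each cell to 600 UMIs the shares were 28.1%, 10.5% and 0%. The thinned shares keep the order of the levels, although the myCAF-like cells were the deepest.

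Pdgfra was almost absent from pericyte-like cells, with 0 UMIs in 41 WB1P cells and 2 UMIs in 39 WB1P-Myc cells (25.9 CPM). The fibroblast-like level exceeded the pericyte-like level by 4.34 on the log2 scale (2.47 to 7.39). That value rests on these 2 UMIs. Removal of the 923 of 4798 kept barcodes with at least 3 markers of another class left neither UMI. The ratio then became a lower bound of 0.97. Both UMIs came from WB1P-Myc fraction 2, and without it the ratio was a lower bound of 3.64. With barcodes above 4000 genes kept, 11 pericyte-like UMIs gave 2.23. Endothelial-like cells held no Pdgfra UMI in either model.

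Epithelial-like cells carried a low Pdgfra level of 24.3 CPM (18.0 to 32.1) in WB1P and 9.54 CPM (6.84 to 12.9) in WB1P-Myc. The fractions were at 0, 31.9, 12.9 and 28.5 CPM in WB1P and at 12.1, 13.3, 6.89 and 5.04 CPM in WB1P-Myc, so the models overlapped. The summed fibroblast markers in the same WB1P cells were at 190, 549, 410 and 638 CPM, and the Pdgfra level followed the same rank order except at the top. In WB1P-Myc they were at 586, 907, 742 and 731 CPM, and the fraction lowest in these markers was not the lowest in Pdgfra. Per 1000 UMIs of Col1a1, Col1a2 and Dcn, however, epithelial-like cells held 66.4 Pdgfra UMIs in WB1P and 21.9 in WB1P-Myc, against 8.05 and 8.56 in fibroblast-like cells. The part of fibroblast RNA in this level was not tested.

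Pdgfrb, the receptor for PDGF-B and PDGF-D, had a different order, with pericyte-like cells above myCAF-like cells and iCAF-like cells below both. Pericyte-like cells stood at 246 CPM (141 to 400, 16 UMIs) in WB1P and 285 CPM (179 to 432, 22 UMIs) in WB1P-Myc. MyCAF-like cells stood at 187 CPM (142 to 241) and 167 CPM (133 to 207), and iCAF-like cells at 86.6 CPM (50.4 to 139) and 59.95 CPM (37.1 to 91.6). The few other fibroblast-like cells had levels above the pericyte-like ones, 560 CPM (152 to 1433) from 4 UMIs in 5 WB1P cells and 313 CPM (143 to 595) from 9 UMIs in 22 WB1P-Myc cells, with intervals that overlap those of the pericyte-like cells. These 27 cells also held pericyte markers, 5 of 11 with a UMI and a sum of 1729 CPM that ran from 0 to 5490 CPM by library. Their Rgs5 lay in 2 cells. The part of pericyte RNA in their Pdgfrb level was not tested. The log2 ratio of iCAF-like to myCAF-like cells was −1.33 (−1.89 to −0.81), opposite in sign to that of Pdgfra, and that of myCAF-like to pericyte-like cells was −0.61 (−1.14 to −0.06). Summed pericyte markers moved the same way as Pdgfrb, with 279 and 393 CPM in the myCAF-like cells of WB1P and WB1P-Myc, 81.5 and 71.4 CPM in the iCAF-like cells, and 6348 CPM in the pericyte-like cells. Their part in the difference between the fibroblast classes was not tested.

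By fraction, iCAF-like Pdgfrb was at 84.0, 94.2 and 82.0 CPM in WB1P fractions 2 to 4 and at 73.5, 46.5, 39.96 and 91.6 CPM in WB1P-Myc. MyCAF-like Pdgfrb was at 182, 174 and 220 CPM in WB1P and at 227, 158, 172 and 126 CPM in WB1P-Myc, and every one of these fractions lay above every iCAF-like fraction. Pericyte-like Pdgfrb was at 186, 346 and 197 CPM in WB1P and at 558, 340, 199 and 179 CPM in WB1P-Myc, so it overlapped the myCAF-like fractions. The separation of pericyte-like from fibroblast-like cells was accordingly modest, with a log2 ratio of 0.95 (0.41 to 1.46). In WB1P alone its interval included 0 (0.68, −0.20 to 1.46), and in WB1P-Myc it was 1.14 (0.41 to 1.81). Thinning to 600 UMIs lowered it to 0.37, whereas removing barcodes with markers of another class raised it to 2.38. That removal took out 923 of the 4798 kept barcodes. The raised value covers only cells with fewer than 3 markers of any other class, although pericyte-like cells as a class held fibroblast markers.

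**Figure D2:**
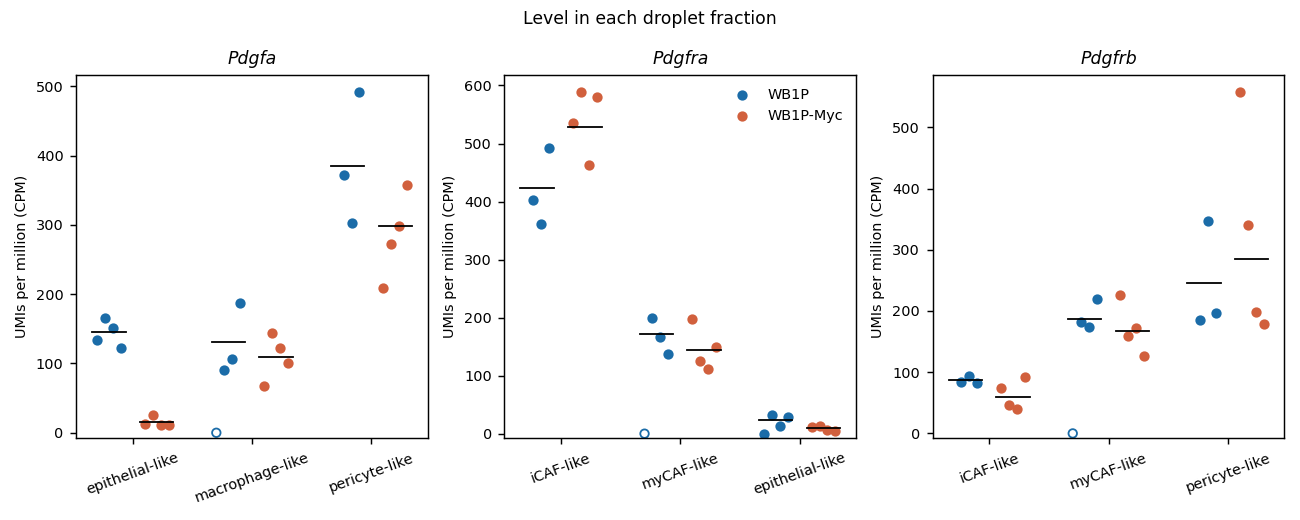
Level of Pdgfa, Pdgfra and Pdgfrb (CPM, vertical axis) in each droplet fraction of WB1P (blue) and WB1P-Myc (orange) by cell class; black lines are the pooled levels, open circles are fractions with fewer than 5 cells of the class, and a fraction without a cell of the class has no point. For Pdgfa in epithelial-like cells the WB1P fractions (122 to 165 CPM) and the WB1P-Myc fractions (10.8 to 25.7 CPM) do not overlap, whereas the receptor levels of the models overlap in every class drawn.

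Against all other cells, fibroblast- and pericyte-like cells together were higher in Pdgfrb by 4.77 on the log2 scale (4.39 to 5.16), and by 6.11 in the MiSeq tables. They did not separate by model, with a log2 ratio of WB1P-Myc to WB1P of −0.21 (−0.60 to 0.18), and the sign turned in the MiSeq tables (0.44) and after thinning (0.52). Pericyte-like cells held 13.9% of Pdgfrb UMIs in WB1P and 11.3% in WB1P-Myc, from 1.94% and 0.65% of UMIs of every kind. A Pdgfrb UMI was found in 27.5% of pericyte-like cells, in 45.8% of the myCAF-like and 16.8% of the iCAF-like cells, and, as background, in 0.51% of macrophage-like cells. The median depth of pericyte-like cells was 1269 UMIs, and thinned to 600 UMIs the shares were 8.75%, 9.47%, 5.10% and 0.10%.

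Endothelial-like cells of WB1P-Myc held 7 Pdgfrb UMIs (39.4 CPM), and those of WB1P held none. The WB1P-Myc fractions were at 0, 21.3, 83.1 and 68.6 CPM, and the summed pericyte markers in the same cells were at 1262, 1514, 4152 and 1097 CPM. The 2 measures had their highest value in the same fraction, and the part of pericyte RNA in this level was not tested.

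Few cells showed both receptors. Both were detected in 26 of 196 iCAF-like cells (13.3%, where the product of the separate shares is 9.79%) and in 33 of 190 myCAF-like cells (17.4%, product 16.9%). Pdgfra without Pdgfrb was seen in 88 iCAF-like and 37 myCAF-like cells, and Pdgfrb without Pdgfra in 7 and 54. No pericyte-like cell (0 of 80) held both, where the product of the separate shares is 0.69%, while 22 held only Pdgfrb and 2 only Pdgfra. Cells with both had medians of 3755.5 UMIs (iCAF-like) and 5451 UMIs (myCAF-like), against 2421 and 3577 for the whole classes. At these depths a missing UMI does not show that a cell lacked the receptor.

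Pdgfa, which encodes the PDGFRα ligand PDGF-A, showed the clearest difference between the models, and it lay in the epithelial-like cells. These cells came almost wholly from a different cluster in each model. The WB1P fractions were at 134, 165, 151 and 122 CPM and the WB1P-Myc fractions at 12.1, 25.7, 10.8 and 11.1 CPM, with no overlap. Pooled, the levels were 146 CPM (129 to 163, 294 UMIs) in WB1P and 14.9 CPM (11.5 to 19.0, 64 UMIs) in WB1P-Myc, which is 9.78-fold higher in WB1P and a log2 ratio of WB1P-Myc to WB1P of −3.29 (−3.70 to −2.90). A Pdgfa UMI was found in 20.8% of WB1P and 5.82% of WB1P-Myc epithelial-like cells, and in 7.28% and 1.14% after thinning to 600 UMIs.

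Schwann-like cells, present in WB1P-Myc alone, were also low, at 25.9, 23.4, 43.0 and 12.1 CPM by fraction. Joined with the epithelial-like cells, the log2 ratio between models was −2.89 (−3.18 to −2.60), and −1.97 when cells were named singly. The Col2a1/Acan cluster of WB1P-Myc was higher, at 75.1, 97.7, 87.3 and 76.1 CPM by fraction and 84.0 CPM (70.8 to 98.9, 143 UMIs) pooled. It lay above the Schwann-like cells in every fraction, by 1.75 on the log2 scale (1.36 to 2.15).

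Per UMI, the highest Pdgfa level was in pericyte-like cells. It was 385 CPM (249 to 568, 25 UMIs) in WB1P and 298 CPM (189 to 447, 23 UMIs) in WB1P-Myc, with fractions at 372, 303 and 492 CPM and at 209, 272, 298 and 357 CPM. The fractions of the models overlapped, and every one lay above the epithelial-like fractions. The pericyte-like level exceeded that of all other cells by 2.51 on the log2 scale (2.06 to 2.93), and it exceeded that of fibroblast-like cells by 2.57 (2.02 to 3.10). A Pdgfa UMI was found in 32 of the 80 pericyte-like cells, and in 17.5% of them after thinning. Summed epithelial markers in the pericyte-like cells were at 400 CPM in WB1P and 90.7 CPM in WB1P-Myc.

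Macrophage-like cells also held Pdgfa UMIs, at 131 CPM (104 to 162, 82 UMIs) in WB1P and 109 CPM (91.2 to 129, 132 UMIs) in WB1P-Myc. The fractions were at 91.0, 106 and 187 CPM in WB1P fractions 2 to 4 and at 67.9, 144, 123 and 100 CPM in WB1P-Myc, and the 2 macrophage-like cells of WB1P fraction 1 held none. The models overlapped, with a log2 ratio of −0.26 (−0.67 to 0.16), although different macrophage-like clusters held most cells in each. Summed epithelial markers in the macrophage-like cells were at 0, 142, 349 and 387 CPM in WB1P fractions 1 to 4, in the same order as Pdgfa, and at 123, 100.4, 307 and 155 CPM in WB1P-Myc, in another order. Their part in the Pdgfa level was not tested. The 2 larger fibroblast classes had less. It was 60.3 CPM in WB1P and 78.6 CPM in WB1P-Myc for the myCAF-like cells and 45.8 and 19.98 CPM for the iCAF-like cells. The log2 ratio of iCAF-like to myCAF-like cells was −1.29 (−2.19 to −0.47).

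In order of level among classes of at least 30 cells, WB1P pericyte-like cells were followed by epithelial-like and macrophage-like cells, whose log2 ratio of 0.16 (−0.20 to 0.53) included 0. Macrophage-like cells stood above myCAF-like cells by 1.11 (0.38 to 1.92). In WB1P-Myc macrophage-like cells stood above the Col2a1/Acan cluster by 0.38 (0.02 to 0.73), the cluster did not separate from myCAF-like cells (0.10, −0.42 to 0.64), and epithelial-like cells were last. Among smaller classes, the 16 WB1P cells of the Col2a1/Acan cluster were at 233 CPM (75.8 to 545, 5 UMIs). The 22 other fibroblast-like cells of WB1P-Myc were at 174 CPM (56.5 to 406, 5 UMIs). Epithelial-like cells held 67.4% of WB1P Pdgfa UMIs, from 2019522 of the 3347371 WB1P UMIs of every kind. In WB1P-Myc the Col2a1/Acan cluster held 27.9%, macrophage-like cells 25.8%, Schwann-like cells 17.4% and epithelial-like cells 12.5%. In the same order these classes held 1703060, 1210808, 3487019 and 4299733 of the 11943202 WB1P-Myc UMIs of every kind.

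The ratio of epithelial- and Schwann-like cells to all others had opposite signs by model, with the WB1P value above and −2.14 (−2.42 to −1.86) for WB1P-Myc cells. The WB1P fractions did not share the sign. Fractions 2 and 3 gave 0.88 and 0.64, fraction 4 gave −0.15, and fraction 1 had no Pdgfa UMI in other cells. The 4 WB1P-Myc fractions ran from −2.87 to −1.90. Over both models it was −1.003, and it was −0.14 when the first clustering was finer.

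**Figure D3:**
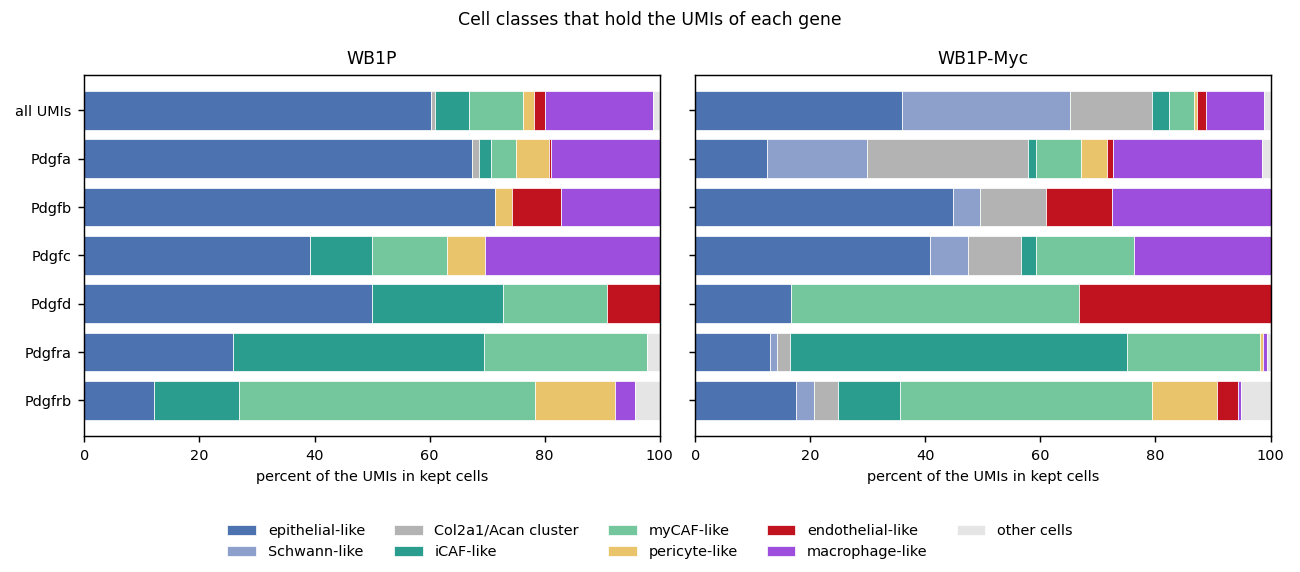
Share of the UMIs of each PDGF gene, and of UMIs of every kind (top bar), held by each cell class (percent of UMIs in kept cells) in WB1P (left) and WB1P-Myc (right). Epithelial-like cells hold 67.4% of Pdgfa UMIs in WB1P and 12.5% in WB1P-Myc, and fibroblast-like cells (iCAF-like, myCAF-like and a few counted with other cells) hold 74.2% and 82.0% of Pdgfra UMIs.

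Pdgfb, the ligand of both receptors, had its highest level in endothelial-like cells. It was 49.5 CPM (10.2 to 145, 3 UMIs) in WB1P and 56.3 CPM (27.0 to 104, 10 UMIs) in WB1P-Myc. By fraction it was at 0, 44.2, 0 and 110 CPM in WB1P and at 39.4, 107, 55.4 and 22.9 CPM in WB1P-Myc, so the models overlapped. Over all other cells the endothelial-like level was higher by 2.91 on the log2 scale (1.96 to 3.75). In WB1P-Myc alone the ratio was 3.11 (1.99 to 4.06), and in WB1P, with 3 UMIs, the interval reached 0 (2.35, −0.01 to 4.02). Between models the ratio in these cells was 0.19 (−1.77 to 2.69), and 1.26 without WB1P fraction 4. A UMI was found in 10.1% of endothelial-like cells, and in 4.59% after thinning.

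Macrophage-like cells carried Pdgfb at 9.55 CPM in WB1P and 19.8 CPM in WB1P-Myc, and epithelial-like cells at 12.4 and 9.07 CPM. The macrophage-like fractions were at 0, 0, 8.84 and 17.8 CPM in WB1P and at 16.2, 31.4, 13.6 and 17.3 CPM in WB1P-Myc, which overlapped. Platelets also carry PDGF-B, and summed platelet markers in the macrophage-like cells were at 7.96 CPM in WB1P and 33.0 CPM in WB1P-Myc. Their part was not tested. Epithelial-like cells held 71.4% of Pdgfb UMIs in WB1P and 44.8% in WB1P-Myc, from 60.3% and 36.0% of UMIs of every kind. Endothelial-like cells held 8.57% and 11.5%, from 1.81% and 1.49% of all UMIs. No fibroblast-like cell (0 of 413) held a Pdgfb UMI, which allows a share of up to 0.726% by the floor of 3 counts. That limits cells with a UMI at this depth, not cells that express the gene.

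Endothelial-like cells had 2 of the 6 genes higher than in all other cells, Pdgfb and Pdgfd, against 16.7% of genes, and Pdgfra lower, against 14.4% of genes. Pericyte-like compared with fibroblast-like cells had 4 members with enough UMIs, of which Pdgfa was higher (9.82% of genes) and Pdgfra lower (17.3% of genes).

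Pdgfc, a latent ligand of PDGFRα, was low, with UMIs in fibroblast-, macrophage-, epithelial- and Schwann-like cells, the Col2a1/Acan cluster and 1 pericyte-like cell. That cell held 3 UMIs, which put WB1P pericyte-like cells first in order at 46.2 CPM (9.53 to 135) without separating them from the iCAF-like cells next to them (log2 ratio 0.86, −1.83 to 3.22), and WB1P-Myc pericyte-like cells held none. Fibroblast-like fractions were at 0, 28.6, 15.6 and 20.2 CPM in WB1P and at 19.3, 28.2, 8.63 and 9.99 CPM in WB1P-Myc. Macrophage-like fractions were at 0, 11.4, 17.7 and 35.6 CPM and at 19.4, 12.6, 13.6 and 13.8 CPM. Neither class separated by model. Fibroblast-like cells exceeded all other cells by 1.42 on the log2 scale (0.73 to 2.06), and macrophage-like cells exceeded all others by 1.38 (0.75 to 1.98). In WB1P alone both intervals included 0, at 0.78 (−0.35 to 1.79) and 0.92 (−0.10 to 1.87).

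Epithelial-like cells held Pdgfc at 8.91 CPM in WB1P and 7.21 CPM in WB1P-Myc, and Schwann-like cells at 1.43 CPM. Epithelial- and Schwann-like cells together had a log2 ratio to all other cells of −1.17 (−1.71 to −0.63), with −1.24 in WB1P and −1.06 in WB1P-Myc. No endothelial-like cell held a Pdgfc UMI.

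Pdgfd, a latent ligand of PDGFRβ, was the rarest member with 28 UMIs in all, 22 of them in WB1P. The fibroblast-like fractions were at 0, 17.2, 10.4 and 26.9 CPM in WB1P and at 4.82, 4.03, 4.32 and 0 CPM in WB1P-Myc. The 3 WB1P fractions with UMIs lay above all WB1P-Myc fractions, and fraction 1, with 2 fibroblast-like cells, overlapped them. Between models the fibroblast-like log2 ratio was −2.36 (−4.88 to −0.36), from 9 and 3 UMIs.

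Epithelial-like cells held 11 Pdgfd UMIs (5.45 CPM) in WB1P and 1 UMI (0.23 CPM) in WB1P-Myc, a log2 ratio of −4.55 with an interval from −9.98 to −1.77. Pericyte-, macrophage- and Schwann-like cells held none. Endothelial-like cells had the highest level in both models, 33.0 CPM (3.99 to 119) in WB1P and 11.3 CPM (1.36 to 40.7) in WB1P-Myc, from 2 UMIs each. Their log2 ratio to all other cells was 3.40 (1.41 to 4.94), from 4 UMIs. Fibroblast- and pericyte-like cells exceeded all other cells by 2.73 (1.52 to 3.91) over both models and by 1.71 (0.31 to 3.05) in WB1P. Without WB1P fraction 2 the value over both models was 3.61. In WB1P-Myc 3 UMIs stood against 3, too few for a ratio to be read.

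Between models, none of the 4 members with at least 20 UMIs differed by 2-fold in fibroblast- and pericyte-like cells, where 6.11% of genes were higher and 3.54% lower in WB1P-Myc (6.51% and 3.48% in fibroblast-like cells alone). In endothelial-like cells no member reached 20 UMIs, and 11.2% of genes were higher and 5.09% lower. In epithelial- and Schwann-like cells 0 of 5 members were higher (19.3% of genes) and 3, Pdgfa, Pdgfb and Pdgfra, were lower (15.9% of genes). Schwann-like cells are in that pool only for WB1P-Myc. In epithelial-like cells alone the Pdgfra log2 ratio was −1.35 (−1.98 to −0.72), and that of Pdgfb was −0.45 (−1.21 to 0.34).

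Around the 6 genes, 28 genes that process PDGF ligands, bind ligand or receptor, or transmit and dampen the receptor signal were all measured. In fibroblast- and pericyte-like against all other cells 11 of 28 (39.3%) were at least 2-fold higher and 1 (3.57%) lower, beside 14.2% and 26.3% of all genes, and their median log2 ratio was 0.71. All 5 co-receptors and binding partners were among the higher genes. Pdgfrl, a secreted relative of the PDGF receptors, was at 127 against 3.57 CPM, a log2 ratio of 5.15. Sparc, a matrix protein that binds PDGF-B, was at 14017 against 759 CPM, and Lrp1, an endocytic receptor that associates with PDGFRβ, at 367 against 33.2 CPM. Hspg2, the heparan sulfate proteoglycan perlecan, had a log2 ratio of 2.66 and Nrp1, a co-receptor for several growth factors, of 1.19.

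Of 7 processing proteases 3 were higher. Pcsk5, a proprotein convertase, was at 150 against 2.62 CPM, a log2 ratio of 5.84 (5.33 to 6.39). Plat, the tissue plasminogen activator that activates PDGF-C, was at 247 against 21.8 CPM, a ratio of 3.50, and Plau, the urokinase that activates PDGF-D, at 65.9 against 19.8 CPM, a ratio of 1.73. St14, encoding the epithelial protease matriptase, was lower at 1.29 against 18.0 CPM, a ratio of −3.80 from 2 UMIs. Furin, the general proprotein convertase, had a ratio of 0.11.

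Of 10 signalling genes Shc1 (1.61) and Src (1.31) were higher, and of 6 negative regulators Socs3 (1.01). Shc1 is an adaptor and Src a kinase recruited to active receptors, and Socs3 is an inducible inhibitor of cytokine signalling. The other signalling genes lay between −0.84 for the adaptor gene Grb2 and 0.71 for Srf, a transcription factor gene.

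**Figure D4:**
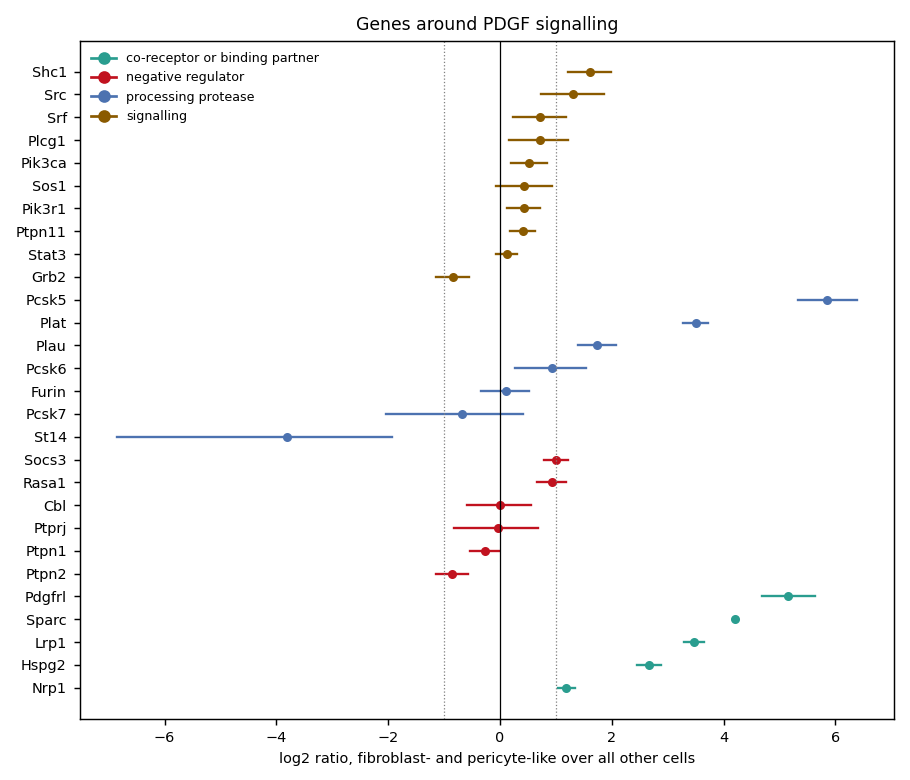
Log2 ratio of pooled level in fibroblast- and pericyte-like cells to that in all other cells (horizontal axis) for the 28 genes around PDGF signalling, coloured by role; points are ratios, bars exact conditional binomial 95% intervals, and dotted lines mark 2-fold. All 5 binding partners lie to the right of the 2-fold line, Pcsk5 is farthest right at 5.84 and St14 farthest left at −3.80.

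Within the stroma, 0 of 25 of these genes with enough UMIs were 2-fold higher in pericyte-like than in fibroblast-like cells (9.82% of all genes) and 10 were lower (17.3% of all genes), among them Pcsk5 (−3.54), Rasa1 (−2.39), a GTPase-activating protein for Ras, and Lrp1 (−1.71). The ratios of Pcsk5 and Rasa1 rest on 2 and 3 pericyte-like UMIs. In endothelial-like cells 8 of 28 (28.6%) were higher than in all other cells, beside 16.7% of all genes, and 3 (10.7%) lower, near the 14.4% of all genes. Nrp1, at 1016 against 125 CPM, was the leading one with a log2 ratio of 3.03, and Lrp1 had no UMI there. In epithelial- and Schwann-like cells 1 of 28 was higher (St14, 1.78) and 12 (42.9%) were lower, beside 14.3% and 19.9% of all genes.

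Between models, fibroblast- and pericyte-like cells differed by 2-fold in 2 of 25 of these genes, with Cbl, a ubiquitin ligase, higher in WB1P-Myc (1.27, −0.05 to 2.86) and Socs3 lower (−1.27, −1.68 to −0.87). With 1 gene in each direction this is near the 6.11% and 3.54% of all genes. In epithelial- and Schwann-like cells 1 of 28 was higher in WB1P-Myc (19.3% of all genes) and 9 (32.1%) were lower (15.9% of all genes). The higher gene was Nrp1, at 72.2 against 10.4 CPM, and within WB1P-Myc the Schwann-like cells had 134 CPM of it and the epithelial-like ones 21.6 CPM. The lower genes were Plau (−3.30), Src (−2.89), Plat (−2.68), Pdgfrl (−2.50), Shc1 (−1.95), Lrp1 (−1.64), Rasa1 (−1.38), the receptor phosphatase gene Ptprj (−1.18) and Pik3r1 (−1.11), a subunit of PI3-kinase. In the epithelial-like cells alone Plat was at 69.3 CPM in WB1P and 9.77 CPM in WB1P-Myc, and Plau at 40.6 and 3.95 CPM.

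The genes whose pattern was most like each member were found from Pearson correlations of log2(CPM + 10) over 20 profiles, each a class in 1 model with at least 10 cells. The profiles differ in depth and share libraries, so the values are a description. Pdgfra was nearest to Sfrp1 (0.96), a secreted Wnt inhibitor, Islr (0.95) and Fbln1 (0.94), which is also a naming marker. Pdgfrb was nearest to Olfml2b (0.97), S1pr3 (0.94) and Ednra (0.94), the endothelin A receptor. For the ligands the nearest were Tmem38b (0.84), Dnpep and Jag1 for Pdgfa, Cmtm8 (0.95), Exoc6 and Afap1l1 for Pdgfb, Wdr44 (0.83), Rbm12 and Tmem119 for Pdgfc, and Igfbp3 (0.82), Cdh13 and Ddx59 for Pdgfd. The likeness was closer for the receptors and for Pdgfb than for the other ligands.

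On build mm10 (GENCODE M21), Pdgfa lies at chr5:138976014-138997370 on the minus strand, Pdgfb at chr15:79995874-80014977 (minus), Pdgfc at chr3:81036416-81214040 (plus), Pdgfd at chr9:6168584-6378850 (plus), Pdgfra at chr5:75152292-75198215 (plus) and Pdgfrb at chr18:61045150-61085061 (plus). Of the annotated genes that overlap the 6, those with counts in these tables were the antisense gene 6330403L08Rik at Pdgfa and Mir7025 at Pdgfra. The counting was not stated to use strand, so reads of overlapping genes may have been assigned to either.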

How the data were processed

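The authors deposited 16 tables of UMI counts per gene and barcode, from Drop-seq libraries of 8 droplet fractions sequenced on HiSeq and MiSeq. The values are raw counts, not normalized. The submitters' processing notes name mm10 and Scanpy, and the study's methods name dropseq-tools as the source of the counts. The aligner and the strand setting of the counting are not given in the sources used here. A merged table was not used, and the MiSeq tables served as an alternative. The HiSeq tables list 8000 barcodes, 3 of them in more than 1 library.

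Barcodes with at least 200 genes were loaded, and those with 450 to 4000 genes and under 20% mitochondrial UMIs were kept, as were genes in at least 3 cells. The upper limit was the only treatment of doublets. Counts were scaled to 10000 per cell, log transformed and clustered by the Leiden method in scanpy 1.11.5 (anndata 0.12.19, igraph 0.11.9, Python 3.11.15), all cells with 30 principal components at resolution 0.3, then stromal and immune cells apart with 40 components at resolution 0.6, each with 20 neighbours. A cluster was named when at least 3 markers of 1 of 15 lists led, being found in at least 10% of its cells at 2-fold or more, and when its top 10 genes held no more markers of another class. Where the top 10 held no marker of the list, at least as many of its markers had to lead as not, those without counts included. This left 52 immune cells unnamed although 5 macrophage markers led. A further rule, for clusters far shallower than their libraries, left none unnamed here. Clusters that no list set apart within the stromal or immune cells were named against the cells outside that set. The rule was completed after the clusters were seen, and the members and all lists were chosen with earlier results of these data known.

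Levels were pooled over cells. Intervals came from scipy 1.17.1 with numpy 2.4.6 and pandas 2.3.3. A ratio against 0 UMIs was bounded with a floor of 3 counts. Genes with at least 20 UMIs entered the counts past 2-fold. The genes named were the 6 members, the pathway genes past 2-fold in a class or model contrast (by counts, with examples), the 3 genes most like each member among genes with at least 100 UMIs, and defining markers. edgeR 4.0.16 and DESeq2 1.42.0 in R 4.3.3 supplied only scaling factors for alternatives to pooled counts. The ratio and its interval were run on simulated Poisson counts. These share the interval's assumption and hold no variation between cells, fractions or mice, so the run does not check that assumption. Figures were drawn with matplotlib 3.10.9.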

Additional observations from a re-analysis of the deposited data

Results flagged for a closer look

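Of 38 groups listed by gene, class and model, only those with cells of the class in all 4 fractions could be examined. Among these, 4 held a fraction far from the other 3 by Dixon's criterion. Its rate of about 1 in 20 by chance holds for continuous values. With 1 UMI or none per fraction, a flag can follow from the sparse counts alone. Pdgfrb in fibroblast-like cells of WB1P fraction 1 was at 337 CPM, from 1 UMI in 2 cells. Pdgfa in epithelial-like cells of WB1P-Myc fraction 2 was at 25.7 CPM, from 27 UMIs in 209 cells, above the other 3 fractions and still below every WB1P fraction. Pdgfd was at 0 CPM in the 60 fibroblast-like cells of WB1P-Myc fraction 4, and in the 218 epithelial-like cells of that fraction it was at 1.01 CPM, from 1 UMI where the other fractions had none.

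Barcodes over 4000 genes, outside the filter, also held PDGF UMIs. The 40 such WB1P barcodes had Pdgfa at 127 CPM (110 to 146), Pdgfb at 9.40, Pdgfc at 11.3, Pdgfd at 3.76, Pdgfra at 16.9 and Pdgfrb at 4.39 CPM. The 134 WB1P-Myc barcodes had Pdgfa at 24.8 CPM (20.4 to 29.9), Pdgfb at 9.61, Pdgfc at 7.82, Pdgfra at 3.80, Pdgfrb at 4.92 and no Pdgfd UMI. The Pdgfa intervals of the models do not overlap, in the same direction as in the epithelial-like cells.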

How the results depend on the processing

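Each of 13 ratios was recomputed under other choices of clustering, cell filter, naming, run, depth and summary. Ratios of iCAF-like to myCAF-like cells, of Pdgfa in pericyte-like cells and of Pdgfa between models in epithelial-like cells alone were not among them. Of 160 values apart from left-out fractions 127 stayed within the counting interval and 33 fell outside it, and none of the 10 ratios whose interval leaves out 0 changed sign. Unless stated, the cause of a move was not tested. Removing barcodes with at least 3 markers of another class took out 923 of the 4798 kept ones. All values below are log2 ratios.

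For Pdgfra in fibroblast-like over all other cells the MiSeq tables gave 4.19, removal of barcodes with markers of another class 5.76, cells named singly from markers 4.78, thinning 6.04 and the mean CPM over cells 5.61. For Pdgfra in fibroblast-like over pericyte-like cells, keeping barcodes above 4000 genes gave 2.23, removal of mixed barcodes 0.97, a bound with 0 pericyte UMIs, and single naming 2.35, also a bound. For Pdgfrb in pericyte-like over fibroblast-like cells, 2000 variable genes gave 1.48, removal of mixed barcodes 2.38, single naming 1.83 and thinning 0.37. For Pdgfrb in fibroblast- and pericyte-like over all other cells the MiSeq tables gave 6.11 and removal of mixed barcodes 5.39. For Pdgfa in epithelial- and Schwann-like over all other cells, first clustering at resolution 0.6 gave −0.14, a minimum of 200 genes −0.75, barcodes above 4000 genes −0.70, the MiSeq tables −0.37, single naming −0.64, thinning −0.45 and the mean CPM −0.76.

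Between models, Pdgfra in fibroblast-like cells was −1.48 in the MiSeq tables and −0.76 under single naming. Pdgfrb in fibroblast- and pericyte-like cells was 0.44 in the MiSeq tables, −0.98 under single naming and 0.52 after thinning, so neither sign is fixed. Pdgfa in epithelial- and Schwann-like cells was −2.26 with 2000 variable genes, −2.23 with PDGF and pathway genes among the clustering genes, −2.21 at 200 genes, −2.24 under 10% mitochondrial UMIs, −2.34 with barcodes above 4000 genes, −2.58 in the MiSeq tables and −1.97 under single naming.

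Leaving out each fraction in turn gave, of 104 values, 100 within the interval. The other 4 were of Pdgfa in epithelial- and Schwann-like over all other cells, from −1.34 without WB1P fraction 2 to −0.80 without WB1P-Myc fraction 4. The ratio of Pdgfb between models in endothelial-like cells ran from −0.37 to 1.26. Counting all genes with at least 1 UMI, not 20, raised the genes 2-fold higher in WB1P-Myc from 468 to 1421 in fibroblast-like, from 461 to 1373 in fibroblast- and pericyte-like and from 263 to 966 in endothelial-like cells. The lower genes rose from 250 to 829, from 267 to 860 and from 119 to 583, and the genes higher in pericyte-like than in fibroblast-like cells from 741 to 1592. Scaling by TMM or DESeq2 shifted the median of all genes by up to 0.12 and moved no ratio outside its interval.

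The MiSeq tables and a second clustering at resolution 0.3 held no pericyte cluster, so the ratios against pericyte-like cells had no value there. The MiSeq tables also gave none for Pdgfd in fibroblast- and pericyte-like over all other cells or for Pdgfb between models in endothelial-like cells. No paired analysis was possible because the results come from no test. There was 1 suspension per model, and Pdgfb, Pdgfc and Pdgfd had at most 16 UMIs in any single class and fraction.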
